A study of Mus musculus with 6 samples.

Results

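The comparison described here sets a mouse cardiac allograft from an animal given BH4 beside the untreated allograft. BH4 is tetrahydrobiopterin, the natural cofactor of the nitric oxide synthases, and was given at 50 mg/kg every 8 h. Each group of the study was measured on 1 Affymetrix oligonucleotide array of total RNA, so the comparison rests on 2 of the 6 arrays. It covers 22626 of the 22690 probe sets, leaving out 64 controls, and 12393 genes. The members were chosen by the array titles BH4 and Allogen and by no measured value.

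The other arrays appear below only as reference levels. They are an untreated cardiac syngraft and 3 allografts from treated mice. ABH4, the 4-amino analog of BH4, was given at 50 mg/kg every 8 h, and NIL, N-imino ethyl-L-lysine, an inhibitor of inducible nitric oxide synthase, at 5 mg/kg every 8 h. CsA, cyclosporin A, which blocks the calcineurin signal of T cells, was given at 15 mg/kg every 24 h. Strains, sex, age, the day of graft removal, pooling of grafts and any vehicle given to the untreated mice are not given in the sources used here. All comparisons with the untreated allograft share its single array.

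With 1 array a side no spread between grafts could be estimated and no test was made. A difference is therefore described by its size alone and has no replicate check. All signals below are linear intensities after each array was rescaled to a common median. A signal under 34.8, the floor, was set to it, and a fold against a value at the floor is a lower bound, written "at least". Where a gene had several probe sets, its brightest is given. In whole-graft RNA, fewer cells of a type and less RNA per cell cannot be told apart.

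The tissue label was checked against defining markers. All 6 heart muscle markers (Myh6, Myl2, Tnnt2, Tnni3, Actc1 and Nppa) were above the floor on both arrays, with summed signals of 39268 with BH4 and 39185 without. The 3' to 5' signal ratio of Actb, which reports RNA integrity, was 1.12 on both arrays, and that of Gapdh was 0.861 and 0.857. Across genes, which are not independent replicates, the arrays had a Pearson's r of 0.977.

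The signal with BH4 was at least 2-fold above that of the untreated allograft for 191 genes (1.54%) and at least 2-fold below it for 51 (0.412%). At 1.5-fold, the threshold used for gene lists, 606 genes (4.89%) were higher and 416 (3.36%) lower, and the median log2 difference of all genes was 0.00. The larger differences lay on the higher side, with 78 genes at least 3-fold higher and 4 at least 3-fold lower. Counted over all 22626 probe sets, 302 (1.33%) were at least 2-fold higher and 112 (0.495%) lower. Of the 191 higher genes, 67 were at the floor in the untreated allograft. Of the 51 lower genes, 17 were at the floor with BH4. Another probe set above the floor existed for 65 of the 191, and in 56 of these all such probe sets had the same sign. Of the 51 lower genes 12 had another, with all of the same sign in 8 and at least 1 of opposite sign in 4.

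**Figure D1:**
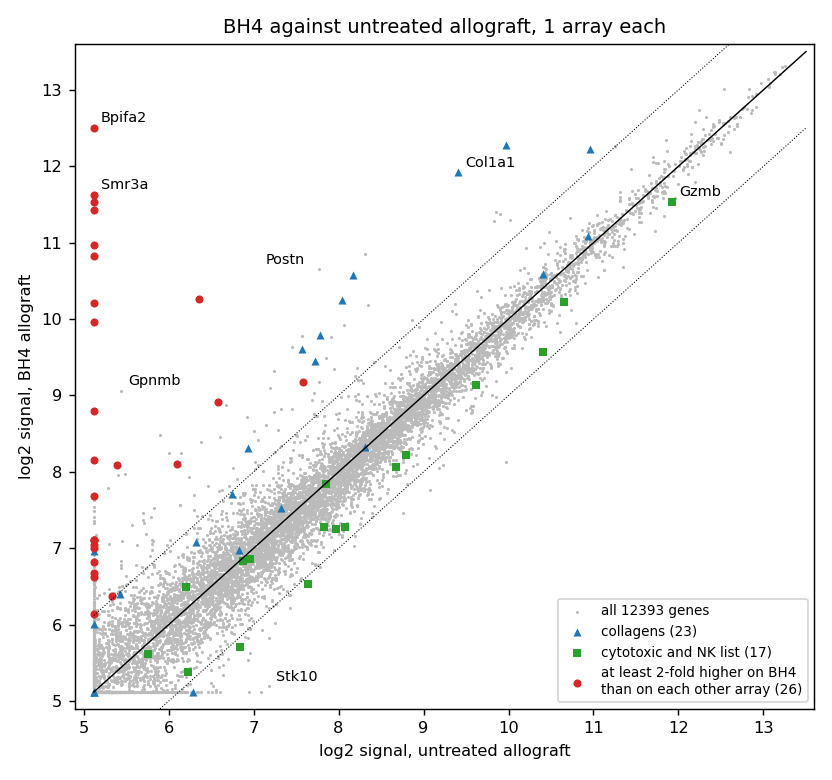
Each point is a gene, with its log2 signal in the untreated allograft on the x axis and with BH4 on the y axis. The solid line marks equal signals and the dotted lines 2-fold differences. Collagens (triangles) lie mostly above the diagonal, cytotoxic and NK genes (squares) mostly below it, and the 26 genes at least 2-fold higher on the BH4 array than on each other array (circles) at or above the upper dotted line, 20 of them at the floor of 34.8 on the x axis.

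A group made up mainly of secretory transcripts of salivary and other glands had its highest signals on the BH4 array. On it, 26 of the 12393 genes were at least 2-fold higher than on each other array. Genes highest on any other single array were not counted. Together the 26 took 0.402% of the summed signal of the BH4 array, against 0.0136% in the untreated allograft and 0.0152% to 0.0239% on the other arrays. In the untreated allograft 20 of the 26 were at the floor, and 9 were at the floor on all 5 other arrays. The choice of these genes used their values, so the following levels are a description.

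The brightest were proteins of saliva. Bpifa2, the parotid secretory protein, had a signal of 5806 with BH4, 56.2 with NIL and 40.7 in the syngraft, and was at the floor on the other 3 arrays. Smr3a, a submaxillary gland androgen-regulated protein, had 3169 with BH4 and was at the floor on all other arrays. Dnase1, a secreted deoxyribonuclease (2763), and Amy1, salivary amylase (2011), were likewise above the floor with BH4 alone. The gene listed as 2310057J18Rik had 2963 with BH4, the floor untreated and 41.6 to 90.9 elsewhere.

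Chia1, an acidic chitinase, had 1815 with BH4 and at most 38.5 elsewhere. Pip, the prolactin-induced protein (1190), and Cst10, a cystatin (1001), were at the floor on all other arrays. Car6, the secreted carbonic anhydrase of saliva, had 445 with BH4 and at most 44.1 elsewhere, and lactoperoxidase Lpo and the tissue kallikrein Klk1 had 138 and 138 against the floor. Amy1, Klk1 and Dcpp3 (483 with BH4, 73.1 to 149 elsewhere) have near-identical relatives, and their probe sets may also report those.

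Others of the 26 are secreted by many epithelia: the whey acidic proteins Wfdc18 (1230 with BH4, 81.7 untreated), Wfdc12 (285, floor) and Wfdc2 (102, floor), lactoferrin Ltf (274, 42.1) and the immunoglobulin transporter Pigr (98.9, floor). Krt8, a keratin of simple epithelia, had 276 with BH4, 68.5 untreated and 86.2 to 122 on the other arrays. Rrp9 (83.2 with BH4, 40.4 untreated) and Wdr46 (129, floor), which act in ribosome assembly in all cells, also met the rule and are no salivary genes. The remaining 6 were Scgb2b27, a secretoglobin (70.3 with BH4, floor), Ggh, a lysosomal hydrolase (580 with BH4, 191 untreated), and Fxyd3 (205 with BH4), Pglyrp1 (139), Cyp2f2 (132) and the salivary proline-rich protein Prp2 (114), the last 4 each at the floor untreated. Closest to the threshold were Ltf and Rrp9, each 2.06-fold above the next highest array, and Scgb2b27 (2.02-fold). Just outside it were Lcn2 (1.94-fold), Gjb2 (1.91-fold) and Idh1 (1.86-fold).

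In a marker list of salivary gland, 7 of 8 markers were above the floor with BH4 and 0 of 8 in the untreated allograft. The summed signals of those above the floor were 11659 and 0, and 0 to 100 on the other arrays. Bpifa2, Smr3a, Amy1, Lpo and Car6 of this list belong to the 26 genes, which were chosen for their BH4 signal. The count and the sums are therefore a description and no separate support. Of the markers outside the 26, Prol1, a mucin-like salivary protein, was at the floor everywhere. Aqp5, the water channel of secretory acini, reached only 37.2 with BH4, and Dcpp1 reached 53.3. In the wider salivary list 13 of 19 measured genes were 1.5-fold or more higher, with a median log2 difference of 1.99. Without the 26 genes 7 were left, of which 1 was higher, with a median of 0.098. Lyz1 in that list (4695 and 3731) cannot be told from its near copy Lyz2 of macrophages.

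Of 17 epithelial genes, 5 were 1.5-fold or more higher and 0 lower, with a median log2 difference of 0.053. The 5 include Krt8, described above, which had been chosen for its BH4 signal and so adds no separate support. Without Krt8, 4 of 16 were higher, with a median of 0.027. The tight junction gene Cldn3 had 199 with BH4 and was at the floor untreated, at least 5.72-fold. It had 121 with NIL and 36.0 to 46.3 on the other arrays. Krt18, the partner of Krt8, was 2.04-fold higher, Cldn7 at least 1.78-fold and Epcam at least 1.63-fold. Krt18 had 263 with BH4, 212 with NIL, 162 with CsA and 129 untreated, so its signal was not particular to BH4. Krt5, Krt19 and the epithelial cadherin Cdh1 were at the floor on both arrays. With the floor lowered to the 10th percentile 12 of the 17 were higher, and at the 50th percentile 3.

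**Figure D2:**
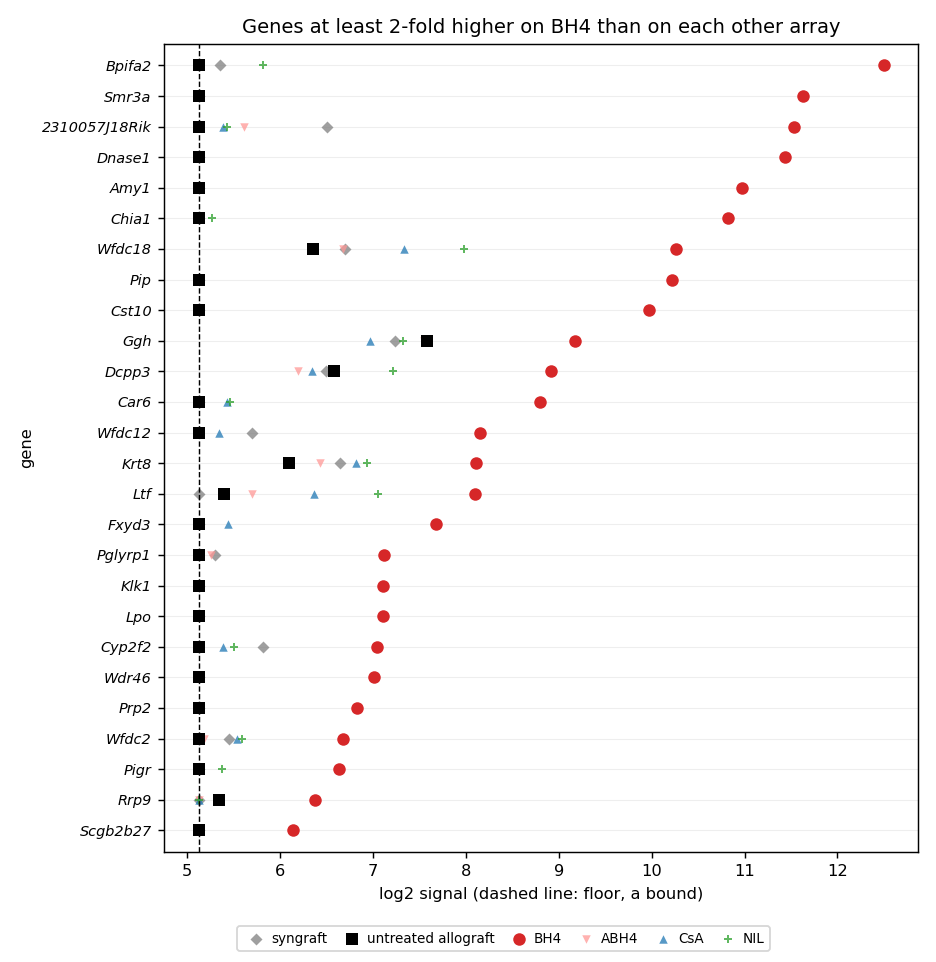
Log2 signals (x axis) of the 26 genes at least 2-fold higher on the BH4 array than on each other array, in order of their BH4 signal, with 1 symbol for each of the 6 arrays. BH4 (large circles) runs from 5806 for Bpifa2 down to 70.3 for Scgb2b27, while the untreated allograft (large squares) is at the floor for 20 genes.

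Leaving these 26 genes out, 165 of 12367 genes (1.33%) were at least 2-fold higher with BH4, 580 (4.69%) 1.5-fold or more higher and 56 at least 3-fold higher. The counts of lower genes stayed as they were, because none of the 26 was lower. No member of the matrix, stroma, lymphocyte, interferon, muscle or stress lists below belongs to the 26, and the only such member among the phagocyte lists is Ltf. The part of these transcripts in the differences of other genes was not tested.

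Promoter sequences from RefSeq (GRCm38.p6) were set beside these values for genes that stood out. The 120 bases before the annotated start of 6 genes are given here from 5′ to 3′ on the strand of the gene, to compare the salivary genes with matrix and phagocyte genes. Capitals mark the letters TATAA, the core of a TATA box, where they fall within 50 bases before the start.
Bpifa2, chr2:154008156-154008275 (+ strand): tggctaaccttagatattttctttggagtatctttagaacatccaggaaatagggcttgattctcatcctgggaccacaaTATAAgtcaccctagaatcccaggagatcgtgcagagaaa
Smr3a, chr5:88002405-88002524 (+ strand): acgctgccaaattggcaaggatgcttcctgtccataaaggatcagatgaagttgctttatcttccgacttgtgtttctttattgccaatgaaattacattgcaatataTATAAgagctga
Amy1, chr3:113577751-113577870 (- strand): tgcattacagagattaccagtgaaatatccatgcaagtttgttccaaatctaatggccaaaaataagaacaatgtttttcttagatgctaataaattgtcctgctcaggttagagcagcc
Postn, chr3:54360987-54361106 (+ strand): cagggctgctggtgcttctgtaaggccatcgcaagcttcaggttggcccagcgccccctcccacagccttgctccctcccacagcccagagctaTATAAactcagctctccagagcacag
Col1a2, chr6:4505498-4505617 (+ strand): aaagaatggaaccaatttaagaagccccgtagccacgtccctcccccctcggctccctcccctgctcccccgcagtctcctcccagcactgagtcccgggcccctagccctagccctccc
Gpnmb, chr6:49036398-49036517 (+ strand): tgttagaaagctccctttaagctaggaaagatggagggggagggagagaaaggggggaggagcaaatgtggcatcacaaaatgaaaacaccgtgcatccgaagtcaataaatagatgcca
The windows of Bpifa2 and Smr3a hold TATAA at 40 and 12 bases before the start. Neither of the 2 annotated starts of the salivary gene Amy1, of which 1 is given, has it within 50 bases. The window of the Amy1 start not shown holds TATAA further upstream. Of 2 annotated starts of Postn, the one shown holds it at 26 bases and the other does not, and the windows of Col1a2 and Gpnmb do not hold it. TATAA was searched for on the strand of the gene only. It was found within 50 bases in 616 of 9887 compared genes with a promoter entry (6.23%), in 7 of the 25 with an entry among the 26 genes highest with BH4 (28%), in 11 of 125 other genes at least 2-fold higher (8.8%) and in 4 of 39 at least 2-fold lower (10.3%). CCAAT, the core of a CCAAT box, was searched for on both strands in 250 bases before the start and was found in 39.9%, 44%, 34.4% and 43.6% of the same sets. A match is a description of the letters and no evidence of binding.

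Tetrahydrobiopterin is made from GTP by Gch1, Pts and Spr and regenerated by Pcbd1 and Qdpr. It serves the nitric oxide synthases and the aromatic amino acid hydroxylases, and without it the synthases release superoxide in place of nitric oxide. In rejecting hearts, inducible nitric oxide synthase, Nos2, is made mainly by infiltrating macrophages and heart muscle under the action of interferon-gamma and other cytokines. The 4-amino analog, by contrast, is known as an inhibitor of the synthases.

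Transcripts of the pteridine pathway differed little between the arrays. Of 7 measured genes of synthesis and recycling 1 was 1.5-fold or more higher, 0 were lower, and the median log2 difference was 0.084. Gch1, the rate-limiting enzyme, had signals of 256 with BH4 and 279 untreated, against 99.2 in the syngraft and 185 to 263 on the other arrays. Pts, the next enzyme, had 101 with BH4 and 146 untreated, 1.44-fold lower. Spr, which completes the synthesis, had 143 and 134.

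Among the recycling genes, Qdpr, the dihydropteridine reductase, had 603 with BH4 and 543 untreated, and Pcbd2 198 and 163. Pcbd1 was at the floor on both arrays. Cbr1, a carbonyl reductase that can act on pteridine intermediates, had 104 and 67.4 and was the member past 1.5-fold (1.55-fold). Other probe sets of Gch1 and Qdpr differed in sign from those given, so neither gene has a settled direction here.

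None of the 5 measured enzymes that use the cofactor was 1.5-fold apart. Nos2 had 54.7 with BH4 and 73.2 untreated, and 34.8 to 88.0 on the other arrays. Nos3, the endothelial synthase, had 190 and 221, and Nos1, the neuronal synthase, was at the floor with BH4 and at 37.8 untreated. Th, tyrosine hydroxylase, had 58.5 and 47.6, and Tph1, tryptophan hydroxylase, was at the floor. Signals of Nos1, Nos2 and Th were close to the floor of 34.8 on both arrays.

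All 14 genes of arginine and nitric oxide handling were within 1.5-fold as well (median 0.089). Arg1, which draws arginine away from the synthases, had 1045 with BH4 and 864 untreated, with the syngraft at the floor. The arginine transporter Slc7a2 had 69.4 and 48.3. The subunits of the nitric oxide receptor, Gucy1a1 and Gucy1b1, had 49.6 and 36.1, and 88.4 and 82.7. Odc1, which makes polyamines from the product of Arg1, had 1176 and 1331, and Prmt1, which methylates arginine in proteins, 564 and 697.

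Each family of extracellular matrix genes measured held members 1.5-fold or more higher with BH4 than in the untreated allograft. Chains of collagen types I, III and VI were 2.40-fold to 5.70-fold higher, while the main network chains of basement membrane were close to equal. None of the matrix lists except the basement membrane list had a member 1.5-fold or more lower. Fibroblasts are the main makers of fibrillar collagen in the heart, and macrophages supply part of the enzymes that remove it.

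Of 8 fibrillar collagen genes 6 were 1.5-fold or more higher and 0 lower, with a median log2 difference of 1.5 (range 0.00 to 2.51) against 0.00 for all genes. Col1a1, a chain of type I collagen, had a signal of 3877 with BH4, 680 untreated, 5537 in the syngraft, 1513 with ABH4, 4708 with CsA and 626 with NIL, and was 5.70-fold higher with BH4. Its partner Col1a2 had 4960, 1003, 7507, 2363, 5643 and 958 in the same order, 4.95-fold higher. For both chains the BH4 signal was below those of the syngraft and CsA and above those of the other allografts.

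The type III chain Col3a1 had 4792 with BH4 and 1994 untreated, 2.40-fold higher. The type V chains, which set fibril width, were unequal: Col5a2 was 5.30-fold higher (1531 and 289), Col5a1 3.34-fold (703 and 211) and Col5a3 1.15-fold (184 and 160). Col11a1 was at least 1.86-fold higher, and Col2a1 of cartilage was at the floor on all arrays. Every other probe set above the floor of Col1a1, Col1a2, Col3a1, Col5a1 and Col5a2 had the same sign.

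All 7 measured collagens of other types were 1.5-fold or more higher, with a median of 1.84 (0.96 with the floor raised to the 50th percentile). The chains of type VI collagen, which forms beaded filaments around cells, were higher by similar amounts: Col6a3 4.63-fold, Col6a1 4.14-fold and Col6a2 4.03-fold. Col16a1 was at the floor untreated and at least 3.58-fold higher. Col12a1 was 1.96-fold, Col8a1 1.95-fold and Col14a1 1.69-fold higher. Col8a1 stayed far below the syngraft, with 210 against 1482.

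**Figure D3:**
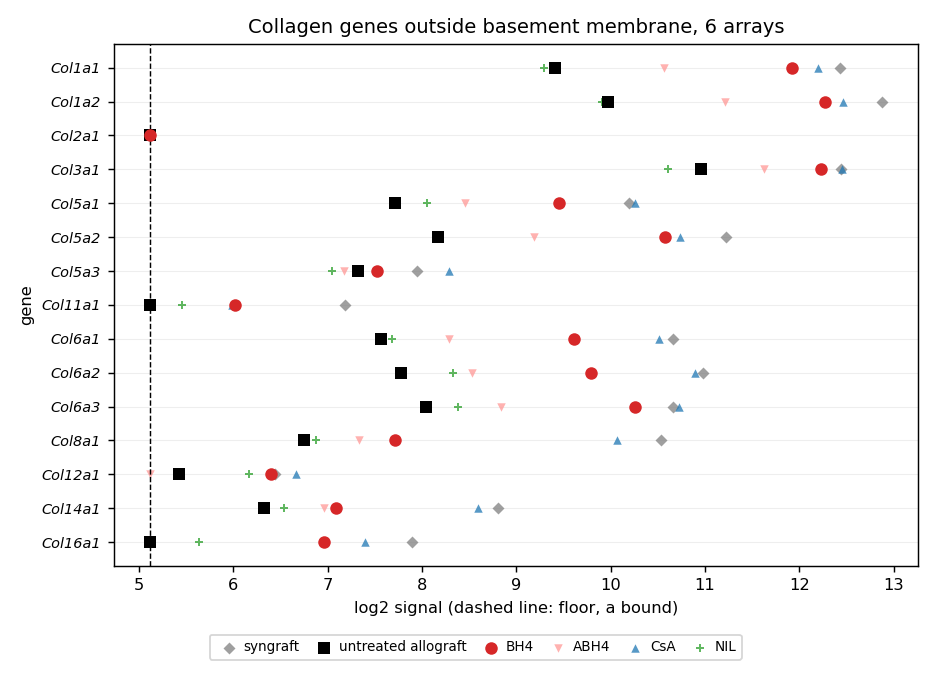
Log2 signals (x axis) of the collagens outside basement membrane on the 6 arrays, 1 row a gene. BH4 (large circles) lies to the right of the untreated allograft (large squares) in every row except Col2a1, which is at the floor on all arrays; for Col1a1 the signals are 3877 and 680.

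In the basement membrane list 4 of 17 genes were 1.5-fold or more higher and 1 lower, with a median of 0.13. The main network chains Col4a1 (2181 and 1952) and Col4a2 (1545 and 1357) were 1.12-fold and 1.14-fold higher. The 4 higher genes were Col15a1 (2.60-fold), the laminin chains Lama4 (1.73-fold) and Lama2 (1.65-fold), which are those of vessels and muscle, and the linker Nid1 (1.70-fold). Col4a6 was at the floor with BH4, at least 2.25-fold lower.

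Of 13 genes that process collagen 5 were higher and 0 lower (median 0.073). The higher genes were Pcolce, which speeds the cleavage of procollagen (3.62-fold), the lysyl oxidases Loxl1 (2.66-fold), Lox (2.64-fold) and Loxl3 (1.94-fold), and Crtap (1.73-fold), a part of the prolyl 3-hydroxylation complex. Enzymes of the endoplasmic reticulum were near equal, such as the collagen chaperone Serpinh1 (1891 and 1797), P4hb (3268 and 3175) and Plod2 (209 and 206). P4ha1, a prolyl 4-hydroxylase chain, had 409 and 510.

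Matricellular and adhesive glycoproteins were 1.5-fold or more higher in 9 of 18 genes and lower in 0 (median 0.61). Postn, which binds collagen and marks activated fibroblasts, had 1612 with BH4, 219 untreated, 3142 in the syngraft, 506 with ABH4, 3019 with CsA and 231 with NIL. It was 7.36-fold higher with BH4. Mgp, an inhibitor of calcification, was 5.79-fold, Fbln2 4.55-fold and Thbs2 3.14-fold higher, and Sparcl1 at least 3.22-fold. Fibronectin Fn1 (2487 and 912) was 2.73-fold, tenascin Tnc 2.21-fold and Sparc 2.01-fold higher.

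Other members of that list were near equal or lower. Ccn2, a classic target of TGF-beta, had 2519 with BH4 and 2310 untreated, and Thbs1 477 and 453. Ccn1 had 535 and 636, and Tgfbi, which macrophages also make, 2035 and 2608. Those 4 had signals of at least 450 on both arrays, so the floor did not limit them.

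Of 9 small leucine-rich proteoglycans, which coat collagen fibrils, 6 were higher and 0 lower (median 1.26). With the floor raised to the 50th percentile 3 were higher (median 0.35), and with the probe sets of a gene averaged 4 (median 0.49). Untreated, Aspn, Fmod and Prelp were at the floor. Lum was 4.22-fold (637 and 151), Bgn 2.90-fold (2695 and 928) and Dcn 2.79-fold (2658 and 954) higher, and Aspn at least 3.46-fold. Of 10 elastic fibre genes 4 were higher and 0 lower (median 0.44, or 1.47 with the floor lowered to the 10th percentile). They were Ltbp2 (4.74-fold), Mfap2 (at least 4.72-fold), Mfap5 (3.62-fold) and Emilin1 (2.64-fold), while elastin, Eln, had 112 and 78.3.

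Proteases of the matrix and their inhibitors were higher in part. Of 20 matrix proteases and inhibitors 9 were 1.5-fold or more higher and 0 lower (median 0.47), or 5 with the floor raised to the 50th percentile. Mmp23 was 5.68-fold higher (222 and 39.0) and the gelatinase Mmp2 3.61-fold (351 and 97.4). The macrophage elastase Mmp12 was 2.63-fold, the neutrophil collagenase Mmp8 2.13-fold, Adamts5 1.95-fold, Mmp9 1.64-fold and Mmp3 1.51-fold higher. Mmp10, Mmp13 and Plau were at the floor on both arrays, and Plat, the tissue plasminogen activator, had 145 and 161. Their inhibitors Timp2 (2.18-fold) and Timp1 (1.60-fold) were higher too, while Timp3 had 1105 and 1121. The membrane protease Mmp14 had 552 and 424.

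Fibroblast genes that are not matrix were higher with BH4 in 9 of 15 cases and lower in 0, with a median of 0.85 (5 higher and a median of 0.30 with the floor raised to the 50th percentile). Pdgfra, the growth factor receptor of cardiac fibroblasts, had 186 with BH4, 95.1 with ABH4, 310 in the syngraft and 244 with CsA, and was at the floor untreated and with NIL. It was at least 5.34-fold higher with BH4. Dpt was 4.03-fold, Gas1 at least 3.85-fold, the fibroblast transcription factor Tcf21 at least 2.56-fold and Fap at least 2.09-fold higher. Pdgfrb, which pericytes also make, was 1.75-fold higher. The bound for Gas1 holds for its brightest probe set only: its log2 difference was 1.94, against 1.26 with the floor lowered to the 10th percentile and 1.02 with its probe sets averaged.

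Not all fibroblast genes shared this pattern. The collagen receptor Ddr2 had 135 with BH4 and 143 untreated. Pi16, abundant in the syngraft with 520, had 36.8 and 38.2, both next to the floor. Thy1, which T cells also carry, had 491 and 681. Over the 6 fixed fibroblast markers, 6 were above the floor with BH4 and 4 untreated, with summed signals of 9414 and 2901. Most of both sums came from the collagens Col1a1 (3877 and 680) and Col3a1 (4792 and 1994), which are described above. The sums therefore add little on fibroblast genes outside matrix.

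Secreted regulators of growth were also higher in part. Of 13 Wnt pathway genes 4 were higher and 0 lower, with 5 at the floor on both arrays (median 0.19; 6 higher with the floor lowered to the 10th percentile and 2 at the 50th). The Wnt antagonists Sfrp2 (250 and 42.5) and Sfrp1 (252 and 44.8) were 5.87-fold and 5.62-fold higher, Dkk3 at least 2.80-fold and Frzb at least 1.58-fold. For Dkk3 the log2 difference was 1.48, and 1.09 with the lower floor. Axin2, a direct target of the pathway, had 52.9 and 66.1. Of 9 insulin-like growth factor genes 4 were higher and 0 lower (median 0.38, or 1.13 and 0.059 with the lower and the higher floor): Igfbp4 4.64-fold, Igf1 at least 3.32-fold, Igfbp6 2.43-fold and Igfbp7 2.42-fold. With the probe sets of a gene averaged 3 of the 9 were higher, and the log2 difference of Igfbp7 was 0.47 in place of 1.27.

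The TGF-beta list had 1 of 14 genes higher and 2 lower (median 0.062). The ligands Tgfb1 (607 and 675), Tgfb2 (259 and 258) and Tgfb3 (152 and 125) were within 1.5-fold. Id3 was 1.52-fold higher, and Id2 (219 and 382) and the repressor Skil (411 and 680) were 1.75-fold and 1.66-fold lower. Of 12 smooth muscle and myofibroblast genes 2 were higher and 0 lower: Myl9 3.22-fold and Tagln 1.93-fold. Acta2, the actin of myofibroblasts, had 1848 and 1891.

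Endothelial genes were mostly equal. Of 14 genes 0 were 1.5-fold or more higher and 1 was lower (median -0.035). Pecam1 had 219 and 212, Kdr 217 and 225 and Tek 58.9 and 59.5. Cldn5, the tight junction protein of endothelium, was 1.76-fold lower (124 and 218).

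**Figure D4:**
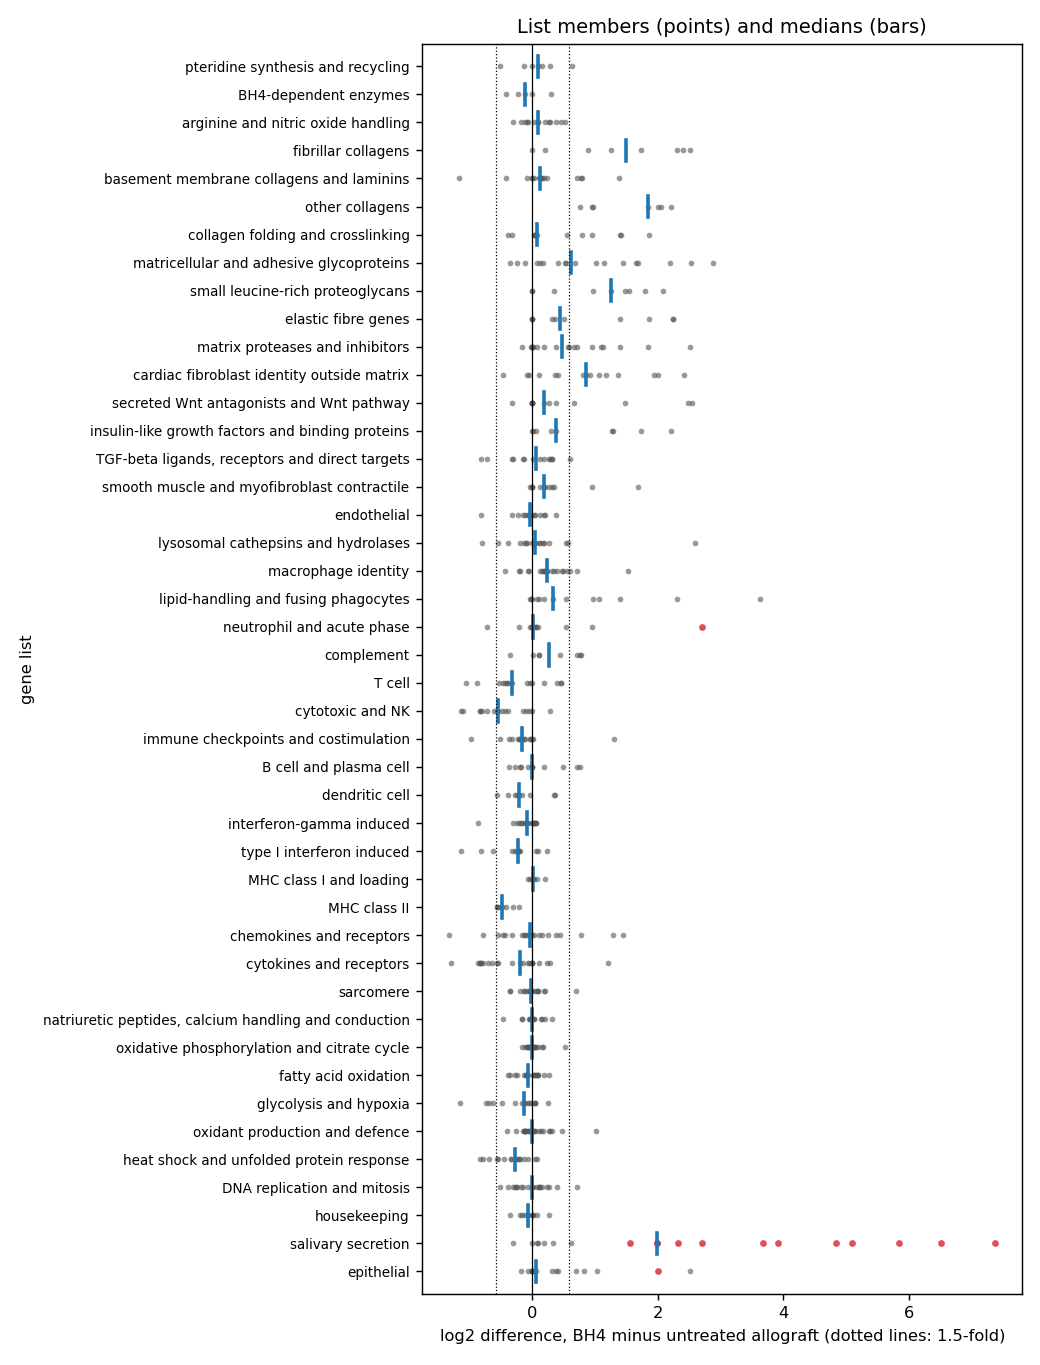
Log2 differences, BH4 minus untreated allograft (x axis), of every measured member (points) of the gene lists named on the y axis, with the median as a bar and 1.5-fold marked by dotted lines. Genes at least 2-fold higher on the BH4 array than on each other array are in red. The fibrillar collagens (median 1.5) and other collagens (1.84) lie to the right, the cytotoxic and NK genes (-0.55) and MHC class II genes (-0.49) to the left, and the muscle lists near 0.

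In the list of lipid-handling and fusing phagocytes 5 of 13 genes were 1.5-fold or more higher with BH4 and 0 lower (median 0.33). Gpnmb, a transmembrane glycoprotein of lipid-laden and fusing phagocytes, had 535 with BH4, 43.3 untreated, 148 in the syngraft, 108 with ABH4, 332 with CsA and 153 with NIL. It was 12.3-fold higher with BH4, whose signal was above those of all other arrays. Trem2, a lipid-sensing receptor, was at the floor untreated and 171 with BH4, at least 4.91-fold. Cd9 was 2.08-fold (434 and 209) and the lipid carrier Apoe 1.96-fold (589 and 300.0) higher.

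The fifth was Mmp12. Cd36 (1933 and 1837), Lpl (5309 and 5367) and the lipid droplet coat Plin2 (1689 and 1728), which heart muscle also makes, were near equal. Of 18 cathepsins and other lysosomal genes 1 was higher and 1 lower (median 0.046). Ctsk, the collagen-degrading cathepsin of osteoclasts and fibroblasts, was 6.01-fold higher (359 and 59.7). Ctsl (1962 and 1323) was 1.48-fold higher and Ctss, of antigen presentation (3566 and 4676), 1.31-fold lower.

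Of 21 macrophage genes 3 were 1.5-fold or more higher and 0 lower (median 0.23). They were the scavenger receptor Marco (at least 2.88-fold), the mannose receptor Mrc1 (1.64-fold) and C1qb (1.52-fold), for which another probe set differed in sign. Cd68 had 1046 and 799, Adgre1 580 and 495, Csf1r 2389 and 2027 and Lyz2 5187 and 3687. Summed over the 5 fixed macrophage markers the signals were 12464 and 9820. Of 8 complement genes, 3 were higher and 0 lower by that fold (median 0.27): C2 1.71-fold, C1s1 1.70-fold and the C1 inhibitor Serping1 1.65-fold.

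Among 14 neutrophil and acute phase genes 2 were higher and 1 lower, or 1 and 1 without Ltf. Lcn2, an iron-sequestering protein of neutrophils and epithelia, was 1.94-fold higher (956 and 492) and had its highest signal of the 6 arrays with BH4. The growth factor receptor Csf3r was 1.65-fold lower (200 and 330). The granule proteins S100a8 (408 and 383) and S100a9 (177 and 205) and Saa3 (2576 and 2476) were near equal.

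Transcripts of cytotoxic lymphocytes were lower with BH4, mostly by less than 1.5-fold. Of 17 cytotoxic and NK genes 7 were 1.5-fold or more lower and 0 higher, with a median of -0.55, and 16 of 17 were lower by any amount. With the floor raised to the 50th percentile 5 were lower by that fold (median -0.46). With quantile normalization, or with the probe sets of a gene averaged, 6 were. The share of all genes lower by any amount was not counted, so 16 of 17 has no background beside it. Gzma, a granule protease, had 761 with BH4, 1353 untreated, 59.8 in the syngraft, 1376 with ABH4, 98.4 with CsA and 1024 with NIL, and was 1.78-fold lower with BH4. Perforin, Prf1, which opens the target membrane, had 267 and 408, 1.53-fold lower. Both BH4 signals were the lowest of the 4 allografts not given CsA, and remained several times those of the syngraft.

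The NK receptor Ncr1 (52.4 and 114) was 2.18-fold lower, the chemokine Xcl1 (92.3 and 199) 2.16-fold, Gzmc 1.79-fold, the granule cathepsin Ctsw 1.74-fold and the NK receptor Klrd1 1.65-fold. With the floor raised to the 50th percentile the log2 difference was -0.46 for Ncr1 (-1.13 as reported) and 0.00 for Gzmc (-0.84). Gzmb had 2973 and 3888, Nkg7 565 and 786 and Klrk1 298 and 443, each lower by under 1.5-fold. Gzmk (230 and 231), Klrc1 (114 and 118) and the transcription factor Tbx21 (116 and 125) were near equal, and Fasl had 89.9 and 73.6. The genes of this list thus did not differ by a common factor.

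Of 15 T cell genes 2 were 1.5-fold or more lower and 0 higher (median -0.32). The adhesion receptor Cd2 (57.2 and 119) was 2.09-fold lower and the receptor chain Cd247 (85.3 and 157) 1.84-fold. The chains Cd3d (343 and 495), Cd3e (259 and 349) and Cd3g (390 and 512) were each lower by under 1.5-fold. Cd6 (164 and 119), Zap70 (361 and 264) and Cd8a (227 and 173) were higher by under 1.5-fold, and other probe sets of Zap70 and Cd8a differed in sign. Summed over the measured T cell markers Cd3e, Cd3g and Cd2 the signals were 706 and 981, against 0 in the syngraft, where all 3 were at the floor.

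Of 15 checkpoint and costimulation genes 1 was higher and 1 lower (median -0.16). The ligand Pdcd1lg2 was 1.97-fold lower (170 and 335), while Cd274, the other ligand of the receptor Pdcd1, had 1512 and 1882 and Pdcd1 itself 164 and 168. Tnfsf4 was at the floor untreated and at least 2.46-fold higher. Of 12 B cell and plasma cell genes 2 were higher, Sdc1 (1.69-fold) and Cd22 (1.64-fold), and 0 lower. Both have other sources or low signal here: Sdc1, with 167 and 99.0, is made by epithelia too, and Cd22 had 103 and 62.5. With the mean over all probe sets, 0 of the 12 were higher.

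Genes of antigen presentation split by class. All 7 measured MHC class II genes were lower with BH4, none by 1.5-fold (median -0.49). How many of all genes were lower by any amount was not counted. The class II transactivator Ciita had 111 and 165, H2-Eb1 2278 and 3384, H2-Ab1 1060 and 1549, H2-Aa 4657 and 6252 and the invariant chain Cd74 5016 and 5807. The 7 class I genes were near equal (median 0.005, range -0.064 to 0.20), with 6931 and 6938 for H2-K1 and 6906 and 6882 for B2m. H2 genes are close in sequence, and other probe sets of H2-K1 and H2-D1 differed in sign. Of 9 dendritic cell genes 0 were 1.5-fold apart (median -0.21), with Itgax 1.49-fold lower.

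Genes induced by interferon-gamma were near equal on both arrays. The cytokine itself, Ifng, had 400.0 with BH4 and 586 untreated, 1.46-fold lower. Of 18 induced genes 1 was 1.5-fold or more lower and 0 higher (median -0.083). The guanylate-binding proteins Gbp2 (5503 and 5257) and Gbp6 (3104 and 3352), the transcription factor Irf1 (2789 and 2994) and the chemokine Cxcl10 (1488 and 1442) were within 1.1-fold. Cxcl11, which uses the same receptor as Cxcl10, was 1.83-fold lower (506 and 924).

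Of 13 genes induced by type I interferon 3 were lower and 0 higher (median -0.23): Mx2 at least 2.20-fold, Mx1 1.75-fold (103 and 181) and Rsad2 1.54-fold (1108 and 1707). Ifit1 (1164 and 1334), Ifit3 (1983 and 2471) and Irf7 (1423 and 1332) were within 1.5-fold. The proteins Mx1 and Mx2 restrict viruses and are classic markers of this response. The group was thus mostly near equal, with a few genes lower.

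Cytokine transcripts were lower in part. Of 23 cytokine and receptor genes 8 were 1.5-fold or more lower and 1 higher (median -0.20, or -0.55 over the 19 genes above the floor on at least 1 of the arrays). With the floor raised to the 50th percentile, or with the probe sets of a gene averaged, 6 were lower. Il6, which drives the acute phase, had 176 with BH4, 434 untreated, 81.7 in the syngraft, 410 with ABH4, 83.3 with CsA and 369 with NIL, and was 2.47-fold lower with BH4. Among the allografts only that given CsA had a lower signal.

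The receptor chain Il2rb was 1.81-fold lower (188 and 342), lymphotoxin beta Ltb 1.78-fold (200 and 357), Il1b 1.77-fold (274 and 486), Il10 1.62-fold (49.5 and 80.3) and Tnf 1.56-fold (123 and 192). Il10ra and the interleukin 1 antagonist Il1rn were 1.75-fold and 1.72-fold lower, but other probe sets of both differed in sign. Il33, an alarmin of stromal cells, was 2.31-fold higher (83.6 and 36.2). Pro-inflammatory Il1b and Tnf and anti-inflammatory Il10 were thus lower together.

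Chemokines showed differences in both directions, with 3 of 21 genes higher and 2 lower (median -0.029). Ccl3, made by activated macrophages and lymphocytes, was 2.49-fold lower (216 and 538), and Ccr2, the receptor of inflammatory monocytes, 1.71-fold lower (260 and 444). The ligand of Ccr2, Ccl2, had 1414 and 1186, and Ccl5 1197 and 1616. Cxcl14 (2.74-fold), Cxcl13 (2.45-fold) and Ccl9 (1.72-fold) were higher, the first from 53.4 to 146.

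**Figure D5:**
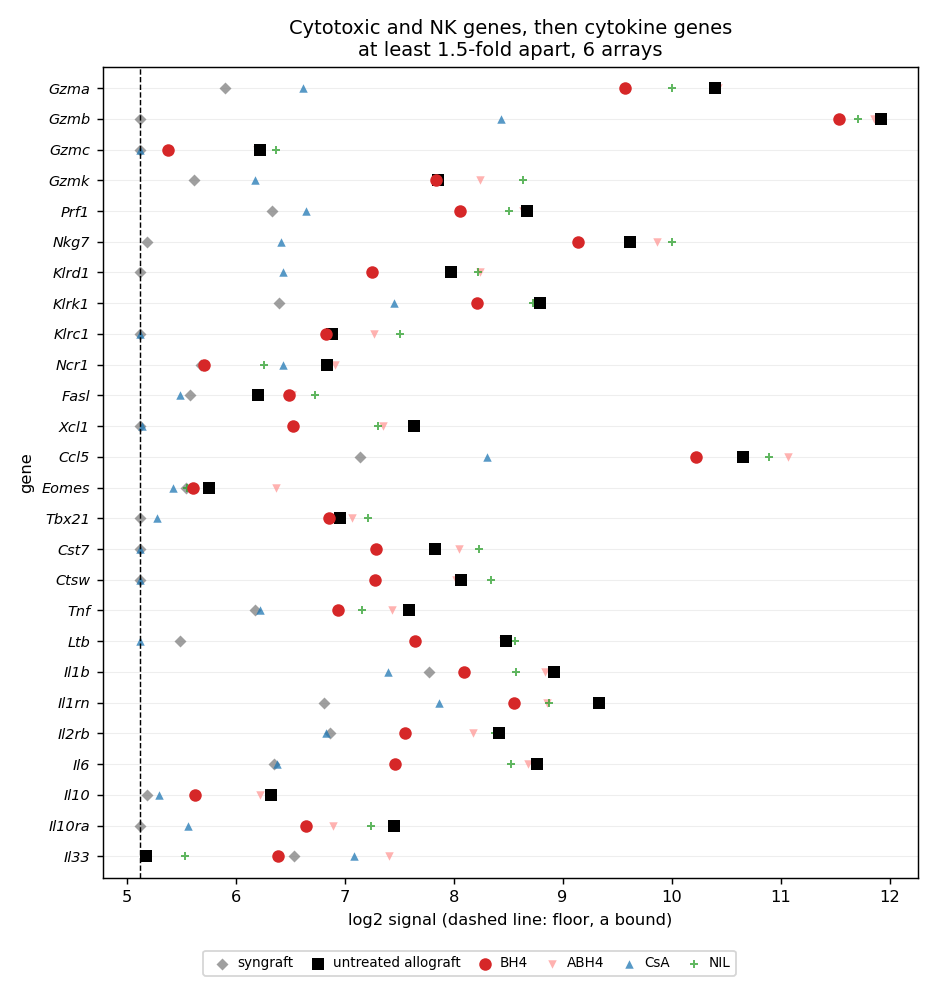
Log2 signals (x axis) of the 17 cytotoxic and NK genes (from Gzma to Ctsw) and, below them, of the cytokine genes at least 1.5-fold apart, on the 6 arrays. BH4 (large circles) lies left of the untreated allograft (large squares) in 16 of the 17 upper rows and, among the lower rows, in all but Il33.

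Heart muscle transcripts were near equal. Of 19 sarcomere genes 1 was 1.5-fold or more higher and 0 lower (median -0.022). The signals were 3236 and 3578 for Myh6, the main adult myosin of the mouse, 3084 and 3970 for the stress-linked Myh7 and 8224 and 7276 for Actc1. Ckm, muscle creatine kinase, was 1.61-fold higher (739 and 460). For Ttn (3288 and 3421), Tnnt2 (6362 and 6425) and Tpm1 (9040 and 8484) another probe set differed in sign.

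All 14 genes of natriuretic peptides, calcium handling and conduction were within 1.5-fold, with Nppb (5917 and 6612) and the sarcoplasmic pump Atp2a2 (6909 and 7191) as examples. The gap junction gene Gja1 was 1.39-fold lower (1602 and 2223), and its 5 other probe sets had the same sign. All 20 genes of the respiratory chain and citrate cycle (median 0.001) and all 19 of fatty acid oxidation (median -0.072) were within 1.5-fold.

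Genes of stress and hypoxia were lower in part. Of 16 glycolysis and hypoxia genes 4 were lower and 0 higher (median -0.13), or 2 lower with the mean over all probe sets. Adrenomedullin, Adm, was 2.23-fold lower (131 and 291), Vegfa 1.67-fold (250 and 417), Ndrg1 1.62-fold (465 and 752) and the oxygen sensor Egln3 1.54-fold (989 and 1524). These 4 are among the targets of the hypoxia-inducible factors. The glycolytic enzymes Ldha (4730 and 4882), Pgk1 (5718 and 6439) and Pkm (4810 and 4691) were within 1.13-fold. The 2 other probe sets of Pgk1 differed in sign from the one given.

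Of 17 heat shock and unfolded protein genes 3 were lower and 0 higher, and 15 were lower by any amount (median -0.28). For the count by any amount, the share over all genes was not counted. Ddit3, which acts in prolonged endoplasmic reticulum stress, was 1.78-fold lower (318 and 567), the inducible Hspa1b 1.73-fold (437 and 756) and Hsph1 1.61-fold (450 and 727). Hspa1a, the close copy of Hspa1b, was 1.46-fold lower, and probe sets of these 2 genes may share signal. Hspa8 (6028 and 6628) and Hspa5 (3483 and 4091) were within 1.2-fold.

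Oxidant genes were near equal in 22 of 23 cases (median -0.003). Sod3, the extracellular superoxide dismutase that binds matrix, was 2.01-fold higher (426 and 212). Hmox1, heme oxygenase, had 1624 and 1161, and the NADPH oxidase subunits Cybb (517 and 563) and Cyba (2739 and 2744) were close. Of 21 replication and mitosis genes 1 was higher, Cdk1 (1.64-fold), and 0 lower (median 0.002), with 302 and 280 for Mki67. All 11 housekeeping genes were within 1.5-fold (median -0.067), as were all 8 adipose, 4 erythroid and 6 mesothelial genes.

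Beyond the lists, the genes furthest below the untreated allograft were mostly of modest signal. The lymphocyte kinase Stk10 was 3.97-fold lower (36.6 and 145), next to the floor with BH4. Ly6i, a surface protein that interferon induces, had 279 with BH4, 1006 untreated, 136 in the syngraft, 947 with ABH4, 131 with CsA and 729 with NIL, and was 3.61-fold lower with BH4. Slamf6, a receptor of lymphocytes, was 2.55-fold lower (56.9 and 145), Fbxo28 2.24-fold and Ero1a, an oxidase of the endoplasmic reticulum that hypoxia induces, 2.18-fold (266 and 579). With BH4 at the floor, Map11 was at least 3.90-fold, Med17 at least 3.55-fold and Ptpn23 at least 2.80-fold lower. Raising the floor to the 50th percentile left log2 differences of -0.70, -0.57 and -0.23 for them. Ptpn23 was above the floor in the untreated allograft alone (97.4), so its low signal was not particular to BH4.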

How the data were processed

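The authors deposited 1 linear signal intensity per probe set and array. Per the values as deposited, each array had been scaled to a mean of about 200 after trimming 2% at each end. The array software and the genome build are not given in the sources used here, and scanner-level data were not used here.

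A factor per array brought the medians over the 22626 non-control probe sets to the mean of the 6 medians, which moved arrays by -0.088 to 0.100 on the log2 scale. Signals under the 30th percentile of all values (34.8) were set to it and log2 was taken. Probe sets were named through the platform annotation: 20380 had 1 gene symbol, 691 several and 1555 none. A gene took its probe set with the highest mean log2 signal over the 6 arrays, which gave 12393 genes.

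The difference is log2 BH4 minus log2 untreated. Each group has 1 array, so no test, error or p-value is given. The 52 gene lists named 777 entries, of which 693 were measured. Members and lists were chosen with earlier results of these data known. Named genes are all pteridine members, up to 8 list members 1.5-fold or more apart and the brightest, the largest differences and bounds, and genes highest or lowest with BH4. Other members were added as examples after their values were seen. The script was tested on simulated data. Scripts used Python 3.11.15, numpy 2.4.6, pandas 2.3.3 and matplotlib 3.10.9. Alternatives were no rescaling, quantile normalization, floors at the 10th and 50th percentiles, averaging the probe sets of a gene, dropping genes at the floor on both arrays, and leaving out the 26 genes highest with BH4.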

Additional observations from a re-analysis of the deposited data

Results flagged for a closer look

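Probe sets with no single gene name took no part in the gene comparison, and 4 of them were at least 2-fold higher on the BH4 array than on each other array. The probe set 1459725_s_at, for which 3 genes are listed, had a signal of 5655.9 with BH4, 118.7 with NIL and was at the floor of 34.8 on the other 4 arrays. The other 3 have no gene listed. 1449880_s_at had 418.3 with BH4, 104.5 untreated and 128 to 199 elsewhere. 1416325_at had 261.3 and 1417867_at 88.5 with BH4, and both were at the floor on all other arrays. None of these signals has a replicate.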

How the results depend on the processing

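The count of genes depended mainly on the floor. With the floor at the 10th percentile, 710 genes were higher and 493 lower with BH4 by at least 2-fold, and 1395 and 1111 by 1.5-fold. At the 50th percentile the counts were 95 and 12 at 2-fold, and 275 and 200 at 1.5-fold. With the mean over all probe sets 33 genes were at least 2-fold lower. No count moved by over 1.5 times with the deposited values, with quantile normalization or without the 26 genes highest with BH4. Single-gene differences were recomputed for 261 genes named by rule. Genes given as further examples, such as Pdgfrb, Tnf and Mmp3, are not among them, so their sign was not checked. None of the 261 genes that was 1.5-fold or more apart changed sign. Under at least 1 alternative 9 genes and 3 list medians did, all with reported sizes of at most 0.15 and 0.005. The genes were Actb, Ankrd1, Fabp4, Gch1, H2-K1, Hspb1, Iigp1, Lpl and Qdpr, and the lists MHC class I, respiratory chain with citrate cycle, and oxidant genes. A fall to 0.00 was not counted as a change of sign. With the floor at the 50th percentile it occurred for genes past 1.5-fold, such as Fap (1.06 as reported) and Col4a6 (-1.17). Raising the floor cannot turn the sign of a probe set, so that alternative was a weak check of sign. Of 1799 recomputed gene differences 1591 stayed within 0.25 of the reported log2 value and 208 did not. Of the 208, 51 moved with the lower floor, 107 with the higher floor and 50 with the mean over probe sets. Dropping genes at the floor on both arrays, or the 26 genes, leaves the difference of each remaining gene unaltered by construction. These 2 alternatives gave 259 and 235 of the 1591, which therefore show no stability. Of 364 list medians 21 moved by more than 0.25. Among genes named for their size, the mean over probe sets gave log2 differences of 1.66 for Pdgfra (2.42 as reported), 1.37 for Trem2 (2.30), 1.66 for Sfrp1 (2.49), 0.98 for Aspn (1.79) and 2.61 for Pip (5.10, or 1.09 with the lower floor). With the higher floor they were 2.68 for Gpnmb (3.63), 0.47 for Igf1 (1.73), 0.006 for Il33 (1.21), -0.80 for Stk10 (-1.99) and 0.00 for Mx2 (-1.14). Single arrays limit every statement: no difference can be set against the spread between grafts, and signals near the floor carry little information on size. No paired analysis was possible because each group has 1 array.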

Other observations

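At 1.5-fold, a lower threshold than the 2-fold used for the secretory genes, 26 of the 12393 genes were lower on the BH4 array than on each of the other 5. Genes lowest on any other single array were not counted. Most of the 26 had low signals. Among the brighter were Ep400, a chromatin remodeler (224 with BH4, 356 untreated, 364 to 438 on the other arrays), and Supt20, a subunit of the SAGA coactivator (141, 263, 216 to 245), for which another probe set differed in sign. Tmx2, a thioredoxin-like membrane protein, had 225, 365 and 416 to 602, and its other probe set differed in sign too. The checkpoint kinase Chek2 had 59.4, 108 and 94.7 to 134, and the mTOR subunit Mlst8 49.4, 124 and 87.1 to 117. Atp2a1, the calcium pump of fast skeletal muscle, had 65.2 with BH4, 153 untreated and 116 to 193 elsewhere, while Myh2, a fast skeletal myosin, was 2.29-fold higher (81.9 and 35.7). These 2 genes of the skeletal muscle list lay in opposite directions.

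Among lists of other tissues, the myelin genes Pmp22 (797 with BH4, 419 untreated) and Mal (588 and 308) were 1.90-fold and 1.91-fold higher and Mbp (59.2 and 95.1) was 1.61-fold lower. Pmp22 is also made by fibroblasts and Mal by epithelia. Of 8 lung genes Sftpb was 1.73-fold higher (164 and 94.6) and Scgb3a2 at least 1.71-fold lower. Comp, a cartilage and tendon matrix protein, was 1.66-fold higher (61.3 and 37.0), and Cd1d1, a lipid-presenting molecule, was lower (117 and 175).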
